A study of Rattus norvegicus with 23 samples.

Results

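The potassium and HCN channel genes of the rat hippocampal CA3 field were followed across 3 groups of animals. They were taken as every probe set of the array with 1 gene symbol that begins with Kcn or Hcn, together with Dpp6 and Dpp10, whose proteins belong to the Kv4 channel complex. This gave 80 of the 14217 genes that the array names, with 132 of its 31042 probe sets. A probe set is a group of short probes that reads 1 stretch of a transcript, and 1 gene can have several. RNA came from male Long-Evans rats, with 1 array per animal. The groups were 8 aged impaired and 6 aged unimpaired rats, both 24 to 26 months old, and 9 young rats, 6 months old. No animal was treated. Impairment was set by a learning index from a water maze, a test of memory for the place of a hidden platform, with unimpaired aged rats inside the range of the young. The tissue was dissected CA3, in which fewer cells of a type and less RNA per cell cannot be told apart.

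Potassium channels let potassium leave the cell, which sets the resting potential, ends the action potential and limits how easily a neuron fires again. Kv4 pores (Kcnd2, Kcnd3) carry the transient A-type current that restrains signals travelling back into dendrites, and they work in a complex with KChIP proteins (Kcnip genes) and with Dpp6 or Dpp10. Inward rectifiers (Kcnj genes) hold the resting potential, carry currents opened by G proteins in neurons and buffer potassium in glia. BK channels (Kcnma1, with beta subunits such as Kcnmb4) open with calcium and depolarisation. HCN channels pass an inward current that hyperpolarisation opens.

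Values are log2 expression values, so that a difference of 1 is a doubling. A probe set was tested when it reached a log2 value of 4 on at least 6 of the 23 arrays, and 50 of the 132 did, from 37 genes. The other 82 were below that filter, 77 of them on every array, and 43 genes had no tested probe set. All 7 probe sets of the Kcne genes, which encode small beta subunits, were below it, as was the 1 for the Kv2 pore Kcnb2. Among inward rectifiers 6 of 26 passed, and among 2-pore (K2P) channels, which carry leak current, 3 of 16. By contrast, 6 of 7 probe sets of the Kv beta subunits and 7 of 10 of the KChIP proteins passed. A gene below the filter is not thereby shown to be silent: 18 genes had probe sets on both sides of it. Kcnj16 was one, with 1373991_at at or above 4 on all 23 arrays and 1370076_at at 2.48 at most. Just under the filter lay Kcnj3 1369740_at, which reached 4 on 5 arrays, and Kcnd3 1369145_a_at, which did so on 4.

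**Figure D1:**
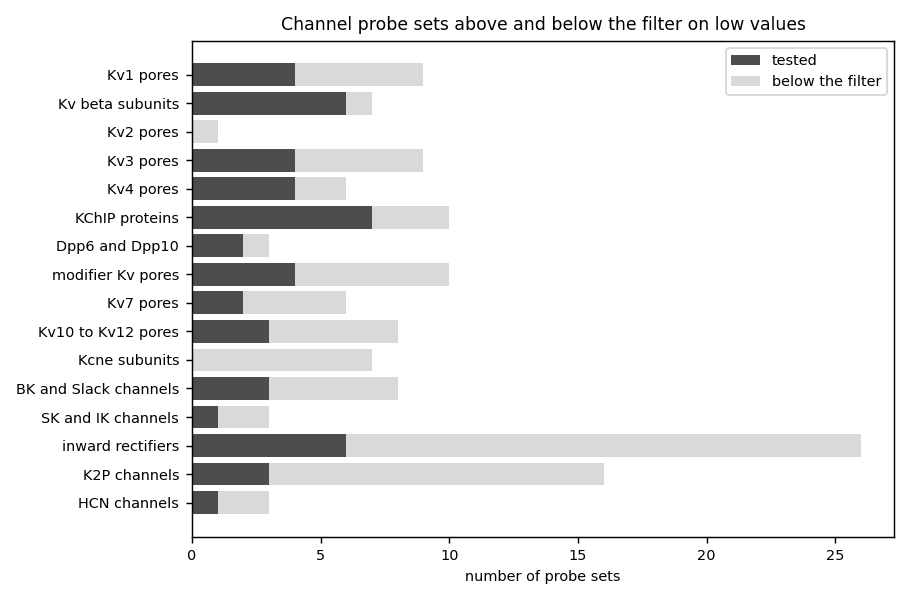
Number of probe sets per channel subfamily (horizontal axis), with those above the filter on low values in dark grey and those below it in light grey. The Kv beta subunits have 6 of 7 above it, the inward rectifiers 6 of 26 and the Kcne subunits 0 of 7.

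Promoter sequence was not used to choose the genes, and it varied among them. RefSeq promoters (assembly GRCr8, 250 bases before to 50 after the start) were at hand for 55 of the 80 genes. The first listed promoter of each of these genes was used. The promoters of all genes were instead every full-length one listed, so the sets were not matched. Across the 55, the median GC content was 62.3%, against 51.7% over 33469 promoters of all genes, and the median number of CpG dinucleotides was 18.0, against 7.0. The motif GGGCGG, searched on both strands, stood in 60.0% of them (33 of 55), against 33.1% of all. CCAAT, searched the same way, stood in 25.5% (14 of 55), against 37.5%, and TATAAA in 3.64% (2 of 55), against 14.2%. A match is only a run of letters, and no factor was measured. The promoters of Dpp6 and Kcnj16 are printed because these 2 genes carried the differences that held under every alternative tried in aged impaired animals, and because they are unlike each other. The Dpp6 promoter (chr4:8995220-8995519, minus strand) had a GC content of 58.3% with 18 CpG and 2 matches to GGGCGG. That of Kcnj16 (chr10:96517074-96517373, plus strand) had a GC content of 34.0% with 6 CpG, no GGGCGG and 2 matches to CCAAT. Both are written 5′ to 3′ along the gene, with GGGCGG and CCAAT on either strand in capitals.
Dpp6: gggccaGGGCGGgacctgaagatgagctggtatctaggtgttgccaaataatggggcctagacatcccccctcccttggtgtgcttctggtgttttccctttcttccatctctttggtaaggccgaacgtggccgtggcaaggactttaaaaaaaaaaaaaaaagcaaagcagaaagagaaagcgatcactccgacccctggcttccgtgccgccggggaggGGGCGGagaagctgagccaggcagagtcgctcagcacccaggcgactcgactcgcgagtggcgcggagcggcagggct
Kcnj16: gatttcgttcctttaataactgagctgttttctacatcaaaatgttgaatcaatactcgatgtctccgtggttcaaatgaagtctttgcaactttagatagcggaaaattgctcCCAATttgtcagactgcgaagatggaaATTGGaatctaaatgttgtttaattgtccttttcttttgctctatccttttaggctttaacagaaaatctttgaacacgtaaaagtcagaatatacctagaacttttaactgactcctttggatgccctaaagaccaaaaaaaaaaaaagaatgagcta

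With age and impairment together, few channel probe sets changed. In aged impaired against young animals, 6 of the 50 tested probe sets passed an adjusted p of 0.05 in limma (12.0%, against 9.76% of all tested probe sets). Only Kcnj16 was higher (2.00%, against 3.88% of all), and Dpp6, Kcnh1, Kcnj6, Kcnmb4 and Kcnip2 were lower (10%, against 5.88%). At an unadjusted p under 0.05 the count was 13 of 50 (26.0%), against 26.3% of all. The share of channel probe sets that differed in this comparison was therefore near that of the array as a whole. The median log2 difference was -0.02 for both the channel probe sets and all tested probe sets. Of the 44 that were not called, 40 differed by less than 0.2 on the log2 scale and the extremes were -0.29 (Kcnk1) and 0.48 (Kcnab2 1387689_at).

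In aged unimpaired against young animals, 3 of 50 were called (6.00%, against 2.06% of all tested probe sets), and all 3 were lower, a direction that 0.696% of all probe sets took (higher 0 of 50, against 1.37%). They read Dpp6, Kcnd2 and Kcnip2, whose proteins form the Kv4 complex. The other tested probe set of each gene was not called in this comparison, and each call was lost when some single arrays were left out. In aged impaired against aged unimpaired animals, 1 of 50 was called (2.00%, against 0.778%), Kcnd2, which was higher (0.676% of all were). With both aged groups averaged against young, 3 of 50 were called (6.00%, against 6.9%): Kcnj16 higher (3.34% of all were), and Dpp6 and Kcnip2 lower (3.56% of all were). Each comparison with the young uses the same 9 young animals, so the comparisons are not independent. Over the 4 comparisons, 8 probe sets of 7 genes were called and 42 were not. At an unadjusted limma p under 0.05, aged unimpaired against young gave 10 of 50 (20%, against 16.8% of all). Between the aged groups it was 13 of 50 (26%, against 15.2%), and with them averaged 10 of 50 (20%, against 23.6%).

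**Figure D2:**
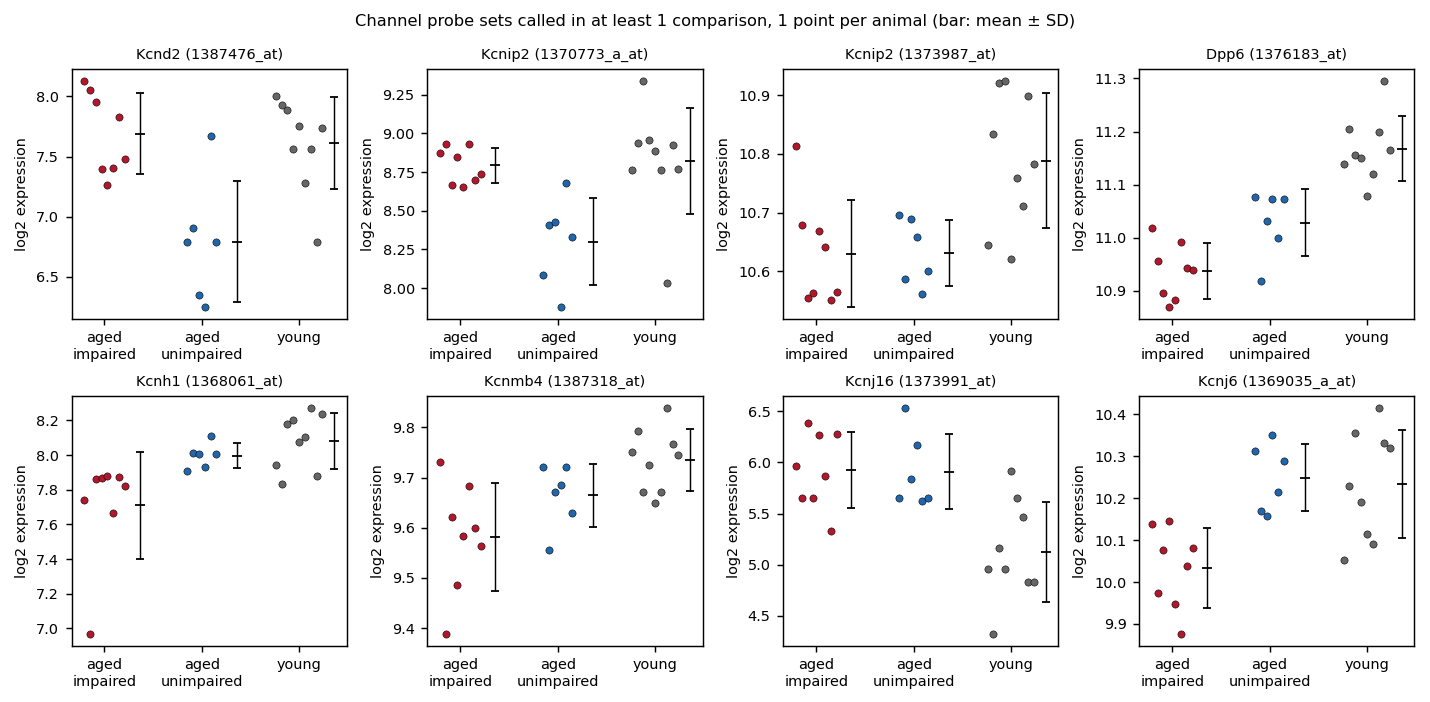
Log2 expression of the 8 called probe sets (vertical axis), with 1 point per animal in aged impaired (n = 8), aged unimpaired (n = 6) and young (n = 9) rats, and the mean ± SD beside the points. Dpp6 1376183_at is lower in both aged groups, with no overlap with the young, and 5 of the 6 aged unimpaired animals are below 7 for Kcnd2 1387476_at.

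Dpp6 encodes a single-pass protein that brings Kv4 pores to the membrane and speeds their gating. Its probe set 1376183_at ran from 10.87 through a median of 10.94 to 11.02 in aged impaired animals, from 10.92 through 11.05 to 11.08 in aged unimpaired animals, and from 11.08 through 11.16 to 11.30 in young animals. Every animal of both aged groups lay below every young animal, a separation downward that 0.259% of all tested probe sets showed for the impaired and 0.287% for the unimpaired. No channel probe set separated upward in either comparison, which 0.594% and 0.649% of all did. The fall was small, 1.17-fold in aged impaired animals (log2 difference -0.23 ± 0.03 SE, adjusted p = 0.000266). In aged unimpaired animals the log2 difference was -0.14 ± 0.04 SE (adjusted p = 0.0387). The difference between the aged groups did not pass (impaired minus unimpaired -0.09, unadjusted 95% interval -0.17 to -0.02, adjusted p = 0.218). In aged impaired animals the fall held in 35 of 35 alternatives, with log2 differences of -0.26 to -0.21 and adjusted p of at most 0.00448. In aged unimpaired animals the call ended when any of 11 arrays was left out (aged unimpaired replicates 2, 4, 6, 7 and 8, and young replicates 2, 3, 4, 7, 8 and 9), with adjusted p of 0.0503 to 0.0977. It also ended with quantile normalization (adjusted p = 0.0706) and with only the arrays of the compared groups (0.0605).

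The second tested probe set of Dpp6, 1369390_a_at, did not show this. It ran from 7.46 through 7.71 to 8.04 in aged impaired, 7.26 through 7.40 to 7.81 in aged unimpaired and 7.26 through 7.68 to 8.04 in young animals, so the groups overlapped. Its log2 difference was 0.07 ± 0.10 SE in aged impaired (adjusted p = 0.678) and -0.20 in aged unimpaired animals (adjusted p = 0.349). The aged impaired interval, -0.13 to 0.27, does not reach the -0.23 of the first probe set. Whether they read the same transcripts was not tested. Dpp10, the related gene, had 1 probe set, which reached 4.22 on 1 array and stayed under 4 on the rest.

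Kcnd2 encodes Kv4.2, the main A-type pore of hippocampal pyramidal cells. On 1387476_at it ran from 7.27 through 7.66 to 8.13 in aged impaired, 6.25 through 6.79 to 7.67 in aged unimpaired and 6.79 through 7.74 to 8.00 in young animals. The aged unimpaired group was the low one. Its replicate 7 alone reached the range of the aged impaired animals, and 2 of its 6 animals lay below every young animal. Kcnd2 was 1.77-fold lower in aged unimpaired than in young animals (-0.82 ± 0.20 SE, adjusted p = 0.0332) and 1.86-fold higher in aged impaired than in aged unimpaired animals (0.90 ± 0.21 SE, adjusted p = 0.0435). Aged impaired and young animals did not differ by the test (0.08, 95% interval -0.31 to 0.46, adjusted p = 0.833). The other probe set, 1379863_at, ran from 9.42 through 9.67 to 9.92 in aged impaired, 9.23 through 9.46 to 9.61 in aged unimpaired and 9.45 through 9.75 to 9.93 in young animals. It was lowest in the aged unimpaired group too, but neither the -0.27 against young (adjusted p = 0.106) nor the 0.22 of impaired against unimpaired (adjusted p = 0.226) passed. Both Kcnd2 calls were lost with no filter on low values, with only the arrays of the compared groups in the fit, and when single arrays were left out. In aged unimpaired against young 10 arrays did so (aged unimpaired replicates 1, 2, 4, 6 and 8, young replicates 1, 2, 3, 4 and 9, adjusted p 0.0510 to 0.101). In aged impaired against aged unimpaired 14 did (aged impaired replicates 1, 2, 3, 6, 7 and 8, aged unimpaired 1, 4, 6 and 8, young 2, 4, 5 and 9, adjusted p 0.0507 to 0.125). Over all probe sets, 2 were called between the aged groups with no filter and 0 with only those groups' arrays, against 114.

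Kcnip2 encodes KChIP2, a calcium-binding subunit of Kv4 channels, and its 2 tested probe sets gave different calls. On 1373987_at it ran from 10.55 through 10.60 to 10.81 in aged impaired, 10.56 through 10.63 to 10.70 in aged unimpaired and 10.62 through 10.78 to 10.92 in young animals. Both aged groups were slightly low. The log2 difference was -0.16 ± 0.05 SE in aged impaired animals (1.12-fold, adjusted p = 0.0350) and -0.16 with the aged groups averaged (adjusted p = 0.0252), whereas the -0.16 in aged unimpaired animals did not pass (adjusted p = 0.113). The aged impaired call ended when aged impaired replicate 3, 4, 7 or 8 or young replicate 2, 3, 4 or 8 was left out (adjusted p 0.0568 to 0.0667). It also ended with no filter (adjusted p = 0.0681), quantile normalization (0.0668), only the arrays of the compared groups (0.0662), a control row of the array (named beta-actin M) as a covariate (0.0785) and the 6 arrays low in it left out (0.0719). The averaged call ended without young replicate 3, 4 or 8 (adjusted p 0.0508 to 0.0598) and with no filter (0.0508).

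On 1370773_a_at, Kcnip2 ran from 8.66 through 8.79 to 8.93 in aged impaired, 7.88 through 8.37 to 8.68 in aged unimpaired and 8.03 through 8.89 to 9.34 in young animals. Here the aged unimpaired group was the low one. It was 1.43-fold lower than young (-0.52 ± 0.14 SE, adjusted p = 0.0448), whereas aged impaired animals were near young (-0.03, adjusted p = 0.913), and the 0.49 between the aged groups did not pass (adjusted p = 0.0819). The call ended when any of 20 of the 23 arrays was left out (all but aged impaired replicate 2, aged unimpaired replicate 7 and young replicate 7), with adjusted p of 0.0503 to 0.134. It also ended with no filter (adjusted p = 0.129) and with only the arrays of the compared groups (0.106).

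The low values of the aged unimpaired group on Kcnd2 1387476_at and Kcnip2 1370773_a_at fell on arrays that were also low in a control row of the array. That row, named beta-actin M in the deposited table, ran from 7.35 to 7.73 in aged impaired animals. It stood at 6.07, 6.43, 6.62, 6.90 and 6.96 in 5 aged unimpaired animals and at 7.62 in replicate 7. In young animals it was 5.99 in replicate 7 and 7.05 to 7.70 in the other 8. The control rows' names are out of register with their values (the row named GAPDH 3' lay near the floor at 2.21), so that the transcript it reads is not known. Kcnab2 1387689_at and 1397663_at and Dpp6 1369390_a_at were low on these 6 arrays as well, though not on these alone, whereas Kcnd2 1387476_at was not low in young replicate 7 (7.57). With the control row as a covariate, a choice made after the data were seen, Kcnip2 1370773_a_at differed by -0.28 in aged unimpaired against young animals (adjusted p = 0.0916). Kcnd2 1387476_at then differed by -0.64 in that comparison (adjusted p = 0.144) and by 0.57 between the aged groups (adjusted p = 0.874). In that fit 0 of all tested probe sets were called between the aged groups, against 114 without the covariate. Only replicate 7 of the aged unimpaired animals lay in the row's range of the aged impaired animals. The fit therefore cannot tell a difference between the aged groups from a difference in the row. The part of the control row's signal in the Kcnd2 and Kcnip2 calls was not otherwise tested.

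**Figure D3:**
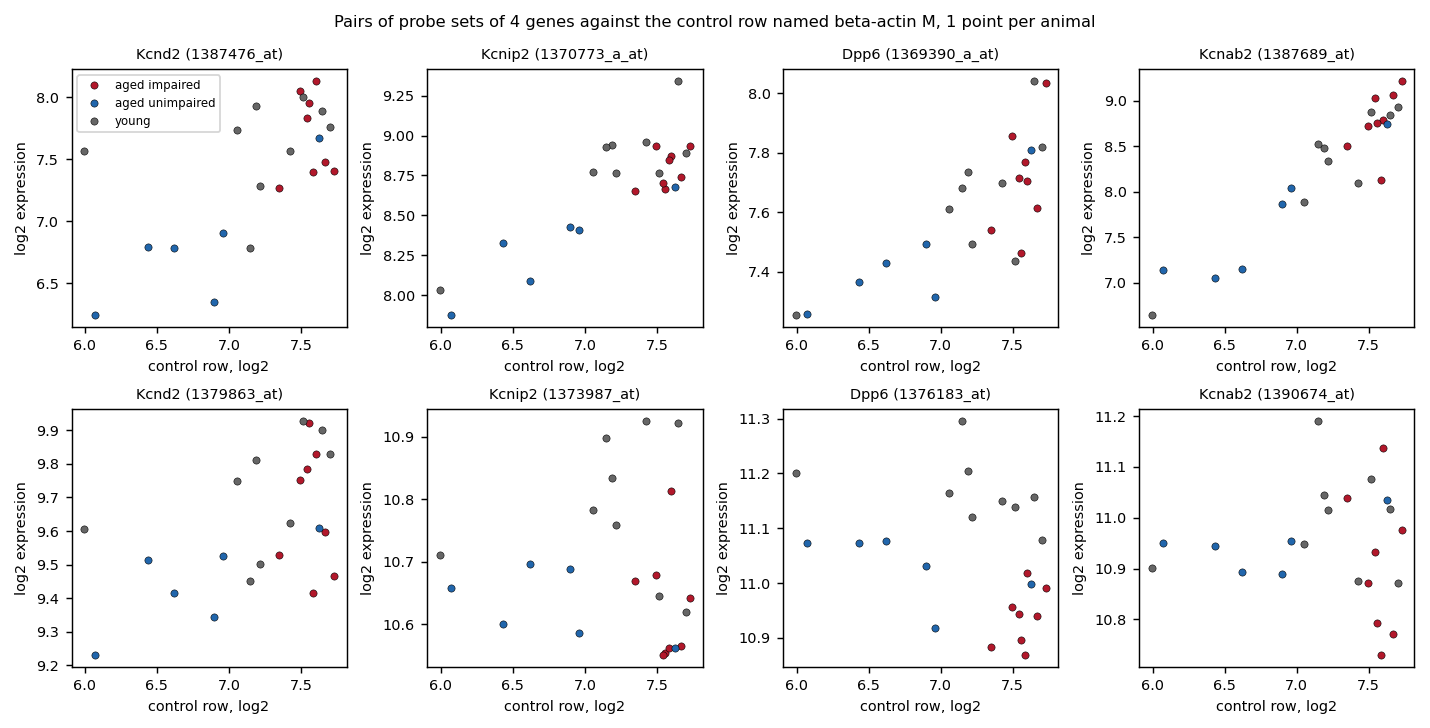
Log2 expression of 2 probe sets each of Kcnd2, Kcnip2, Dpp6 and Kcnab2 (vertical axes) against the log2 level of the control row named beta-actin M (horizontal axes), 1 point per animal. In the upper panels the 5 aged unimpaired animals with a control row under 7 are among the low ones, and in the lower panel of Dpp6 1376183_at the young animal with the lowest control row, at 5.99, is not low.

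The rest of the Kv4 complex gave no call. Kcnd3, the Kv4.3 pore, differed by 0.22 on 1369144_a_at (adjusted p = 0.378) and -0.10 on 1378111_at (adjusted p = 0.326) in aged impaired against young animals. Kcnip1 differed by 0.11 and 0.00 on its 2 probe sets, Kcnip3, a calcium-binding protein that also acts as a transcriptional repressor, by 0.01, and Kcnip4 by 0.01 and -0.07 (adjusted p of 0.504 to 0.980). Across the 4 tested Kv4 probe sets the median difference was 0.01 in aged impaired and -0.14 in aged unimpaired animals against young, and across the 7 KChIP probe sets 0.00 in aged impaired and -0.04 in aged unimpaired animals.

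Among the other voltage-gated pores only Kcnh1 was called. Kcnh1 encodes Kv10.1 (EAG1), a slowly activating channel of neurons. It ran from 6.97 through 7.84 to 7.88 in aged impaired, 7.91 through 8.01 to 8.11 in aged unimpaired and 7.83 through 8.10 to 8.27 in young animals. All 8 aged impaired animals lay below all 6 aged unimpaired animals, and 4 of 8 lay below every young animal. Kcnh1 was 1.29-fold lower in aged impaired than in young animals (-0.37 ± 0.10 SE, adjusted p = 0.0225), while the -0.29 against aged unimpaired animals did not pass (adjusted p = 0.207), nor did the -0.08 of aged unimpaired against young (adjusted p = 0.750). Replicate 2 of the aged impaired group, at 6.97, stood apart from the others. The same animal had the lowest mean of CA3 markers in its group (-0.38) and the highest of CA1 (0.88), dentate (0.67) and microglial markers (0.70), whose part in its Kcnh1 value was not tested. The call stood without any single array, and without that animal the log2 difference was -0.26. The call ended with no filter (adjusted p = 0.0584), with only the arrays of the compared groups (adjusted p = 0.0514), with the control row as a covariate (adjusted p = 0.0510) and with the 6 arrays low in that row left out (adjusted p = 0.0856).

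No Kv1 pore, a channel of axons, was called. Kcna1 ran from 9.20 through 9.51 to 9.74 in aged impaired, 9.18 through 9.43 to 9.79 in aged unimpaired and 9.31 through 9.48 to 9.67 in young animals, and its aged impaired minus young difference was -0.0035 (95% interval -0.16 to 0.16). Kcna2 differed by -0.11 in aged impaired (adjusted p = 0.558) and -0.26 in aged unimpaired animals (adjusted p = 0.246). Kcna4, which carries an A-type current in axons, differed by 0.07, and Kcna6 by -0.08 in aged impaired animals (adjusted p of 0.530 and 0.527). Of the Kv beta subunits, which bind Kv1 pores, Kcnab1 differed by 0.11 and -0.04 on its 2 probe sets. Kcnab2 had 4 tested probe sets, and 1387689_at had the widest range: 8.13 through 8.77 to 9.21 in aged impaired, 7.05 through 7.51 to 8.75 in aged unimpaired and 6.65 through 8.48 to 8.93 in young animals. Its 1.11 ± 0.31 SE between the aged groups was the largest such difference of any channel probe set, yet it did not pass (adjusted p = 0.0792). On 1390674_at the same gene differed by -0.04 between the aged groups (adjusted p = 0.825).

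Kv3 pores let interneurons fire fast. Kcnc2 was 5.38 through 5.45 to 5.74 on 1370559_at in aged impaired, 5.21 through 5.33 to 5.65 in aged unimpaired and 5.01 through 5.38 to 5.43 in young animals, a difference of 0.19 for impaired minus young that did not pass (adjusted p = 0.0867), and its other probe set gave 0.02. Kcnc1 differed by -0.12 (adjusted p = 0.268). The pores that are silent alone and modify Kv2 channels gave no call. Kcnv1 differed by -0.27 (adjusted p = 0.104) and Kcng2 1374814_at by -0.16 (adjusted p = 0.0847), while Kcng2 1390473_at gave 0.09. Kcnq5, a pore of the M-current that muscarinic receptors close, ran from 10.99 through 11.26 to 11.42 on 1379510_at in aged impaired, 11.11 through 11.35 to 11.44 in aged unimpaired and 11.22 through 11.33 to 11.40 in young animals. Its difference of -0.07 in aged impaired animals (adjusted p = 0.382) was within the spread of the groups.

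Kcnj16 was the only channel gene called higher than young. It encodes Kir5.1, an inward rectifier subunit that pairs with Kir4.1 (Kcnj10) in astrocytes. It ran from 5.33 through 5.92 to 6.39 in aged impaired, 5.62 through 5.75 to 6.54 in aged unimpaired and 4.32 through 4.96 to 5.92 in young animals. Both aged groups were high, and 4 of 8 aged impaired animals lay above every young animal. Kcnj16 was 1.74-fold higher in aged impaired animals (0.80 ± 0.19 SE, adjusted p = 0.0128) and rose with the aged groups averaged (0.80 ± 0.17 SE, adjusted p = 0.00750). The 0.79 ± 0.21 SE in aged unimpaired animals lay just outside the threshold (adjusted p = 0.0521). The aged groups differed by 0.01, with a 95% interval of -0.43 to 0.46 (adjusted p = 0.993). The rise in aged impaired animals held in 35 of 35 alternatives, with log2 differences of 0.70 to 0.90 and adjusted p of at most 0.0377. The only probe set of Kcnj10 was near the floor of the scale on every array, at 2.195 at most, and was not tested.

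Some markers of astrocytes and most of microglia were higher in the same animals. Of 11 tested astrocyte markers, 4 were higher in aged impaired and 2 in aged unimpaired than in young animals. Of all tested probe sets, 3.88% and 1.37% were. Gfap, an intermediate filament of astrocytes, stood at 0.62 and 0.53 on the log2 scale, whereas the list's median difference was 0.09 and 0.17. Gjb6 (-0.17), Aldh1l1 (-0.05) and Slc1a2 (-0.04) were lower in aged impaired animals, though not called. The mean of the list, centred on each gene, ran from -0.06 to 0.26 in aged impaired, -0.02 to 0.21 in aged unimpaired and -0.27 to 0.02 in young animals. Of 11 tested microglial markers, 9 were higher in aged impaired and 8 in aged unimpaired animals, and the list's mean ran from -0.06 to 0.70 in aged impaired, -0.03 to 0.37 in aged unimpaired and -0.61 to -0.18 in young animals. Their part in the rise of Kcnj16 was not tested. For the neuronal channels, 3 of 7 tested markers of CA3 pyramidal cells (Chgb, Nrip3 and Dkk3) were lower in aged impaired animals and none passed in aged unimpaired animals. Of all tested probe sets, 5.88% were lower in aged impaired and 0.696% in aged unimpaired animals. Grik4, a kainate receptor subunit enriched in CA3, averaged 8.97 in impaired and 9.03 in unimpaired aged rats and 9.15 in young rats. The CA3 list's mean ran from -0.38 to 0.11 in aged impaired, -0.12 to 0.07 in aged unimpaired and -0.02 to 0.29 in young animals, and its part in the falls was not tested. Of 8 tested CA1 and 3 tested dentate markers none was called, but they varied between animals. The CA1 mean ran from -0.44 to 0.88 in aged impaired, -0.30 to 0.23 in aged unimpaired and -1.24 to 0.67 in young animals, and the median difference of its markers was 0.36 in aged impaired against young. The dentate mean ran from -0.45 to 0.67 in aged impaired, -0.26 to 0.56 in aged unimpaired and -0.46 to 0.49 in young animals.

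Kcnj6 encodes GIRK2, a channel that G protein coupled receptors open, and it was the other inward rectifier called. Of its probe sets only 1369035_a_at passed the filter. Its values ran from 9.88 through 10.06 to 10.15 in aged impaired, 10.16 through 10.25 to 10.35 in aged unimpaired and 10.05 through 10.23 to 10.42 in young animals. All 8 aged impaired animals lay below all 6 aged unimpaired animals, as they did for Kcnh1. These were 2 of 50 channel probe sets (4%), against 0.164% of all tested probe sets that separated downward in this way. The mean of 4 tested markers of CA2, the field next to CA3, separated these groups in the same direction, from -0.22 to -0.04 in aged impaired and 0.03 to 0.21 in aged unimpaired animals, with -0.08 to 0.16 in young animals. Between the aged groups only Amigo2 of these was called (-0.60, adjusted p = 0.0489), and Rgs14, Pcp4 and Necab2 differed by -0.20, -0.15 and -0.04. Against young, Amigo2 was higher in aged unimpaired animals (0.61) and near young in aged impaired animals (0.02). Pcp4 (-0.30) and Rgs14 (-0.24) were lower in aged impaired animals. The part of the CA2 markers in the Kcnj6 and Kcnh1 values was not tested. Kcnj6 was 1.15-fold lower in aged impaired than in young animals (-0.20 ± 0.05 SE, adjusted p = 0.0202). The -0.21 ± 0.06 SE against aged unimpaired animals did not pass (adjusted p = 0.0763), and aged unimpaired and young animals differed by 0.02 (95% interval -0.10 to 0.13). The call against young ended with the control row as a covariate (adjusted p = 0.0753) and with the 6 arrays low in it left out (adjusted p = 0.0636). The call stood without any single array (adjusted p of at most 0.0397), and of those 6 only young replicate 7 is in this comparison. Kcnj3, which encodes the partner GIRK1, was dim, between 5.17 and 5.75, and differed by 0.14 in aged impaired animals (adjusted p = 0.157). Kcnj11, the pore of the ATP-sensitive channel, differed by -0.18 (adjusted p = 0.118).

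Kcnmb4 encodes the BK beta subunit of neurons, which slows the channel's gating. It ran from 9.39 through 9.59 to 9.73 in aged impaired, 9.56 through 9.68 to 9.72 in aged unimpaired and 9.65 through 9.74 to 9.84 in young animals. In 6 of 8 aged impaired animals it lay below every young animal. The fall was 1.11-fold (-0.15 ± 0.04 SE, adjusted p = 0.0232), and the -0.07 of aged unimpaired animals did not pass (adjusted p = 0.450). The BK pore gene Kcnma1 ran from 8.77 through 8.98 to 9.09 in aged impaired, 9.00 through 9.08 to 9.20 in aged unimpaired and 8.91 through 9.04 to 9.41 in young animals. Its difference from young was -0.14 in aged impaired (adjusted p = 0.146) and 0.02 in aged unimpaired animals (adjusted p = 0.924). The Kcnmb4 call ended with the control row as a covariate (adjusted p = 0.0698) and with the 6 arrays low in it left out (adjusted p = 0.0719). That call stood without any single array (adjusted p of at most 0.0465), and of those 6 only young replicate 7 is in the comparison. Kcnn1, an SK channel that calcium opens, lay close to the filter, between 4.38 and 4.71, and differed by -0.02.

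The leak channels were dim and none was called. Kcnk1, which encodes TWIK1, ran from 3.89 through 4.35 to 4.92 in aged impaired, 4.48 through 4.62 to 4.85 in aged unimpaired and 4.40 through 4.66 to 4.93 in young animals. Its difference was -0.29 against young (adjusted p = 0.102) and -0.31 against aged unimpaired animals (adjusted p = 0.230). Kcnk2, which encodes the mechanosensitive TREK1, differed by -0.09 (adjusted p = 0.447). Of the HCN genes, 1 of 3 probe sets passed the filter, that of Hcn2. It ran from 5.73 through 5.79 to 6.46 in aged impaired, 5.44 through 5.70 to 6.03 in aged unimpaired and 5.59 through 5.73 to 6.06 in young animals, with differences of 0.15 (adjusted p = 0.353) against young and 0.24 (adjusted p = 0.318) between the aged groups.

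By subfamily, the median aged impaired minus young difference lay between -0.14 (3 BK and Slack probe sets, all below zero) and 0.15 (the 1 HCN probe set). The Kv beta subunits stood at 0.12 (6 probe sets), the K2P channels at -0.09 (3, all below zero), Dpp6 at -0.08 (2) and the modifier pores at -0.07 (4). The Kv1 pores stood at -0.04, the Kv3 pores at -0.01, the Kv7 pores at -0.03 and the inward rectifiers at 0.04. With so few probe sets in each, these medians are descriptions and were not tested between subfamilies. The called falls came from 5 different subfamilies, 1 each.

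**Figure D4:**
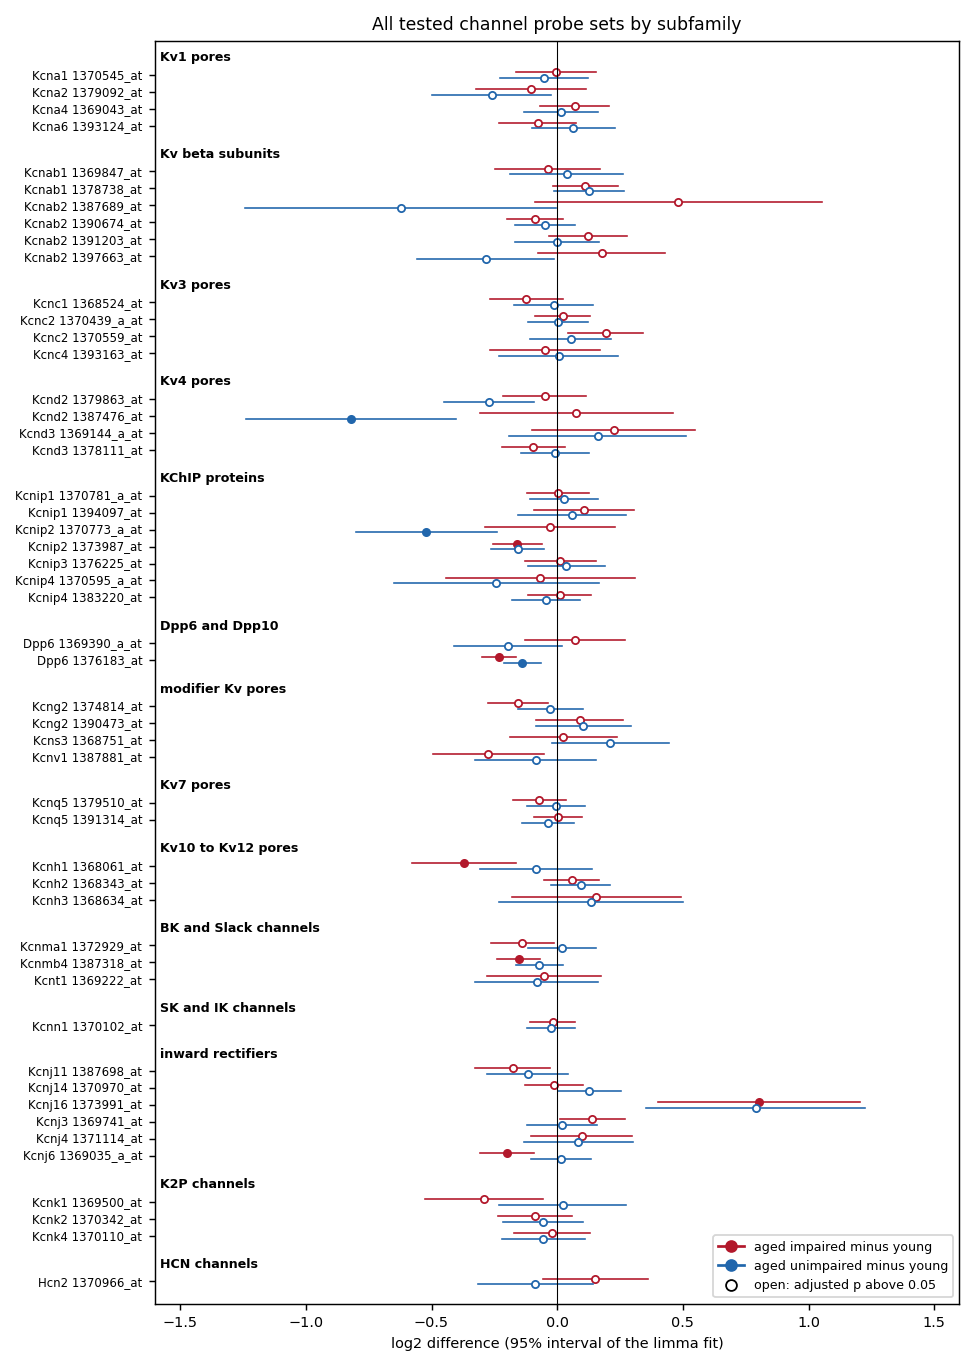
Log2 difference from young with its 95% interval (horizontal axis) for the 50 tested channel probe sets, grouped by subfamily, in aged impaired (red) and aged unimpaired animals (blue). Filled points passed an adjusted p of 0.05, and most intervals span zero, with Kcnj16 (0.80 in aged impaired animals) far to the right and Kcnd2 1387476_at (-0.82 in aged unimpaired animals) far to the left.

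Genes whose proteins bind or anchor these channels were read beside them. Of 40 listed partner genes, 30 had a tested probe set, 43 in all. In aged impaired against young animals 5 of the 43 were lower and 1 was higher, with a median difference of -0.05. Of all tested probe sets, 5.88% were lower and 3.88% higher in that comparison. The 5 were Fgf13, which binds sodium channels (-0.12, adjusted p = 0.0233), the sodium channel beta subunits Scn2b (-0.12, adjusted p = 0.0482) and Scn3b (-0.33, adjusted p = 0.0246), Amigo1, a subunit of Kv2 channels (-0.19, adjusted p = 0.0168), and Unc80, a subunit of the sodium leak channel (-0.14, adjusted p = 0.0383). Scn3b was called on 1370850_at, while its other probe set, 1383435_at, differed by -0.13 (adjusted p = 0.133). Akap9, an anchoring protein for kinases that binds Kv7 channels, was the 1 higher. On its probe set 1384857_at the log2 difference was 0.76 against young (adjusted p = 0.00118) and 0.76 against aged unimpaired animals (adjusted p = 0.0238), whose means lay at 3.99, just under the filter. Its other probe set, 1383151_at, differed by -0.09 from young (adjusted p = 0.238). In aged unimpaired animals only Vapb 1369597_at was called among the partners (-0.60, adjusted p = 0.00406), a direction that 0.696% of all tested probe sets took. On 1390257_at the same gene differed by -0.06 (adjusted p = 0.559). Pex5l, which carries HCN channels to dendrites, differed by 0.92 between aged impaired and aged unimpaired animals (adjusted p = 0.0554). Abcc8, the sulfonylurea receptor that surrounds the Kcnj11 pore, and Cntnap2, which clusters Kv1 channels on axons, differed from young by -0.14 (adjusted p = 0.349) and -0.08 (adjusted p = 0.367) in aged impaired animals.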

How the data were processed

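RNA of the CA3 field from 23 rats was hybridised to Affymetrix Rat Genome 230 2.0 arrays, per the labels' protocols. The authors deposited log2 expression values made with GCRMA, per the submitters' processing notes, which corrects background from probe sequence, normalizes between arrays and summarises probes. Its version is not given in the sources used here. Arrays give no read depth, so their number limits the precision, and dim probe sets lie together at a floor.

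The table held 31099 rows, of which 57 controls were left out. The platform annotation, which can be old, gave 1 gene symbol to 20826 probe sets, several to 436 and none to 9780, and all 132 channel probe sets matched the RefSeq gene table (GRCr8). No arrays were identical (0 pairs), and array medians lay between 3.39 and 3.46. Groups and replicate numbers came from the labels, which call the animals biological replicates. Testing was limited to the 14647 probe sets that reached a log2 of 4 on 6 or more arrays. All 23 arrays entered one limma fit (limma 3.58.1, R 4.3.3, statmod 1.5.0) that estimated a mean for each group, leaving 20 residual degrees of freedom and 2.35 from the prior. Moderated two-sided tests were adjusted by Benjamini-Hochberg over all 14647 probe sets, separately in each of 4 comparisons, and 0.05 was the threshold for a call. The script was tested on simulated data. Differences subtract the group named second, and come with the fit's standard error (SE). Levels of different probe sets were not compared.

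The members, the marker and partner lists and the rules below were chosen with earlier results of these data known. Named were the called probe sets and the others of their genes, the probe set with the lowest unadjusted p of each subfamily in aged impaired against young, and those of a list of hippocampal channel genes. From the partner list, called genes, Pex5l, Abcc8 and Cntnap2 were named. Alternatives were no filter or a stricter one (log2 of 5), median centring, quantile normalization, a floor at 4, a trended robust prior, array weights, only the compared groups, the replicate number as a block, 1 probe set per gene and leaving out each array in turn. The control row as a covariate, and leaving out the 6 arrays on which it was under 7, were added after the data were seen.

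Calls of the lists not counted in the results text were as follows. Of CA2 markers (4 tested), beside the means given, there were 2 lower in aged impaired against young, 1 higher in aged unimpaired against young and 1 lower between the aged groups. Oligodendrocyte markers (10 tested) had 2 lower in aged impaired and 1 lower in aged unimpaired against young. In the 3 pairwise comparisons no marker was called of interneurons (8 tested), oligodendrocyte precursors (3), endothelium and pericytes (8), meninges and fibroblasts (4), choroid plexus (2) or blood (1). With both aged groups averaged against young, 1 meningeal and fibroblast marker, Igf2, was lower (-1.05, adjusted p = 0.0359).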

Additional observations from a re-analysis of the deposited data

Results flagged for a closer look

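In 39 of the tested channel probe sets each group was examined for an animal that stood apart, the gap from the highest or lowest animal to its neighbour being large against the group's range. This flagged 19 of 117 group tests, where chance flags about 1 in 20 if values are normally distributed, which was not tested. Where all other animals of a group shared 1 value, a gap of any size was flagged. The widest gaps in log2 units were those of Kcnab2 1387689_at in young replicate 7 (6.65), Kcnip2 1370773_a_at in the same animal (8.03) and Kcnh1 in aged impaired replicate 2 (6.97). Kcnab2 1397663_at was low in young replicate 7 as well (9.61).

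Several flags fell on the same animals. Young replicate 6 was low for Kcnd3 1369144_a_at (7.93) and for Kcnip1 on both probe sets (7.25 on 1394097_at and 3.89 on 1370781_a_at, where all other young animals were at 4.09). Aged impaired replicate 7 was low for Kcnip1 on both too (7.45 and 3.62), and aged unimpaired replicate 6 was low on 1394097_at (7.65). Aged unimpaired replicate 1 was high by small gaps: for Kcna4 (7.12, next 7.04), Kcnip1 1370781_a_at (4.12, all others 4.09) and Kcnab2 1391203_at (5.03, all others 4.98). Aged unimpaired replicate 8 was high for Kcnj3 1369741_at (5.39, next 5.30) and Kcnn1 (4.56, all others 4.41). The other flags were Kcnk2 in young replicate 1 (5.72), Kcnip4 1383220_at in aged unimpaired replicate 4 (9.48) and Kcnq5 1391314_at in aged impaired replicate 2 (6.23) and young replicate 1 (6.32).

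Kcnd2 1387476_at was flagged because the effect of age differed between the aged groups by a test of that difference, impaired minus unimpaired 0.90 on the log2 scale (limma adjusted p = 0.0435). That call ended under 18 of 33 alternatives, and with the control row as a covariate the difference was 0.57.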

How the results depend on the processing

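No called channel difference changed direction. The called Dpp6 and Kcnj16 differences of aged impaired animals, and those with the aged groups averaged, stayed called in every alternative run. The other calls did not, and the 13 called differences gave 442 values, 343 on the same side of the threshold and 99 past it no longer. Of 33 uncalled differences with 1140 values, 4 values passed, 3 for Kcng2 1374814_at and 1 for Kcnk1.

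Counts of called channel probe sets (limma, adjusted p of at most 0.05) were 6 in aged impaired and 3 in aged unimpaired against young, 1 between the aged groups and 3 with them averaged. Leaving out 1 array gave 5 to 7, 0 to 3, 0 to 4 and 2 to 4. In aged unimpaired against young 0 were left without aged unimpaired replicate 2, 4, 6 or 8 or young replicate 2, 3, 4 or 9, with 6 to 9 at an unadjusted p under 0.05. Between the aged groups 0 were left without any of 14 arrays, those named with Kcnd2 in the results (9 to 14 unadjusted), and 4 were called without aged unimpaired replicate 7 or young replicate 7. Over all probe sets, 447 were called between the aged groups without aged unimpaired replicate 7, against 114. With no filter, which raises the number of tests, the counts were 1 in aged unimpaired against young and 0 between the aged groups (13 at an unadjusted p under 0.05). With only the compared groups' arrays both were 0 (8 and 13 unadjusted). Between the aged groups that setting called 0 of all probe sets and no filter called 2, against 114. Array weights gave 5 in aged unimpaired against young. One probe set per gene gave 0 between the aged groups (8 unadjusted), because Kcnd2 1387476_at is not the brighter probe set. The control row as a covariate gave 2 in aged impaired and 1 in aged unimpaired against young and 0 between the aged groups (2 unadjusted). Over all probe sets, 0 were called between the aged groups with the control row, whose level nearly splits these groups. Leaving out the 6 arrays low in that row gave 2 in aged impaired against young and was not run for the others. Only young replicate 7 of these 6 is in that comparison, and the rest enter the estimate of the spread alone. Except where stated, the cause was not tested.

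The replicate numbers did not pair the animals: 20 pairs with the same number had deviations correlated at -0.0059 on average, against 0.00083 for 154 other pairs. With the replicate block the counts were 4 and 0 against young, 0 between the aged groups and 2 averaged (8 and 10 unadjusted for the comparisons at 0). Over all probe sets, 0 were called between the aged groups with the block. The calls that ended with it were, in aged impaired against young, Kcnj6 (adjusted p = 0.0603), Kcnmb4 (0.0534) and Kcnip2 1373987_at (0.0971), which also ended averaged (0.0821). In aged unimpaired against young they were Dpp6 1376183_at (0.0831), Kcnd2 1387476_at (0.0544) and Kcnip2 1370773_a_at (0.172), and between the aged groups Kcnd2 1387476_at (0.0912).

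Median centring of the arrays moved the share of higher among all calls in aged impaired against young to 20.7%, against 39.7%. Between the aged groups it was 72.6%, against 86.8%, and with these averaged against young 27.2%, against 48.4%. In aged impaired against young 2352 of all probe sets were called with centring, 768 with no filter, 870 with the replicate block, 946 with 1 probe set per gene, 809 with the covariate and 848 without the 6 arrays, against 1429 in the fit as reported. Near the filter, differences are compressed, which bears on Kcnk1, Kcnn1 and the other dim members.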
